A study of Mus musculus with 6 samples.

Results

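The ventricular myosins were followed through 6 genes: the heavy chains Myh6, Myh7 and Myh7b, the light chains Myl2 and Myl3, and Mylk3, the cardiac kinase that phosphorylates the regulatory light chain. They were chosen by symbol, with earlier results of these data known, and are 6 of the 49315 genes in the count table. All 6 had enough counts to be tested, among 12777 tested genes, and together they took 3.65% to 4.43% of the counts of a heart. The data are bulk RNA sequencing of hearts of C57BL/6 mice, 3 of wild-type genotype with wild-type Txnip and 3 of conditional knock-in genotype with the Txnip C247S mutant. The labels name MerCreMer and 4-hydroxytamoxifen for both groups. They give neither the promoter that drives the recombinase, nor whether the wild-type hearts carried it, nor the age or sex of the mice. Txnip is an alpha-arrestin that binds thioredoxin and restrains glucose uptake, and the comparison asks which transcripts differ in the heart when its cysteine is replaced.

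Cardiac myosin is the motor of the thick filament: each heavy chain ends in a head that binds actin and splits ATP, and an essential and a regulatory light chain wrap the lever arm behind that head. The ventricle of an adult mouse runs almost wholly on the fast alpha heavy chain of Myh6, while the slow beta chain of Myh7 prevails before birth and returns under pressure overload or when thyroid hormone is lacking. Myl2 encodes the regulatory light chain of the ventricle, whose phosphorylation by Mylk3 speeds and strengthens contraction, and Myl3 encodes the essential light chain shared by ventricle and slow skeletal muscle.

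Each heavy chain gene also carries a microRNA in its body. Myh6 holds Mir208a (mature miR-208a-3p at chr14:54949072-54949093, minus strand), Myh7 holds Mir208b (miR-208b-3p at chr14:54975710-54975731, minus strand) and Myh7b holds Mir499 (miR-499-5p at chr2:155622893-155622913, plus strand; all GRCm38). None of the 3 precursors overlapped an exon of its host. The mature sequences (RefSeq, GRCm38.p6) are shown because the 3 heavy chains share this design, with the seed, bases 2 to 8, in capitals:
miR-208a-3p: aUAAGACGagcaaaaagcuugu
miR-208b-3p: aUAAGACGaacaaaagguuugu
miR-499-5p: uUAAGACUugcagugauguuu
The microRNAs of Myh6 and Myh7 have the same seed, and that of Myh7b differs from it in its last base. The microRNA genes themselves could not be followed in these libraries: 5 of the 6 hearts had 0 counts for all of them, and knock-in heart 2 had 1 count of Mir208a.

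Myh6 (ENSMUSG00000040752, chr14:54941921-54966927) and Myh7 (ENSMUSG00000053093, chr14:54970684-54994626) lie in tandem on the minus strand, and their coding sequences (5817 and 5808 bases) were identical at 91.7% of 5805 aligned positions. That matters for their counts. Of the 31-base words of the longest Myh7 transcript, 38.6% occurred in transcripts of other genes, with both strands searched, and 31.7% in Myh6. Of its 75-base words 19.7% occurred in transcripts of other genes and 15.3% in Myh6. The longest identical run was 245 coding bases, in exons 30 and 31 of Myh6 (chr14:54948327-54948725) and exons 32 and 33 of Myh7 (chr14:54974947-54975347), where a read names neither gene; no base differs, so none is in capitals:
Myh6 coding bases 4246 to 4490 and Myh7 coding bases 4240 to 4484: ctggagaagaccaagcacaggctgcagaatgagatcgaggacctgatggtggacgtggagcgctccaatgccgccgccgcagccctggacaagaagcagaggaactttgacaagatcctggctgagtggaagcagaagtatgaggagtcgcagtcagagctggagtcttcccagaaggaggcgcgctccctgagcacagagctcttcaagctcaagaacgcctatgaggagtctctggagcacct
The 90-base stretch with the most differences held 33, in exons 24 and 25 of Myh6 (chr14:54952277-54952603) and exons 26 and 27 of Myh7 (chr14:54980352-54982195), and shows what sets reads of the genes apart, with the bases that differ in capitals:
Myh6 coding bases 3222 to 3311: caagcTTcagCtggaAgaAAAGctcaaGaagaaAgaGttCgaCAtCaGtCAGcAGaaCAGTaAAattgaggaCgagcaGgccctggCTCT
Myh7 coding bases 3216 to 3305: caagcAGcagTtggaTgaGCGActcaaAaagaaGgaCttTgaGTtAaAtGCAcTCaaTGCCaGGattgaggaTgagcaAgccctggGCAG
Of 384 windows of 75 bases along the aligned coding sequences, 61 were identical, the median identity was 96.0% and the lowest 61.3%. How reads with several matches were counted is not given in the sources used here, so the Myh7 count, the far smaller of the pair, could hold or lack reads of the shared stretches.

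**Figure D1:**
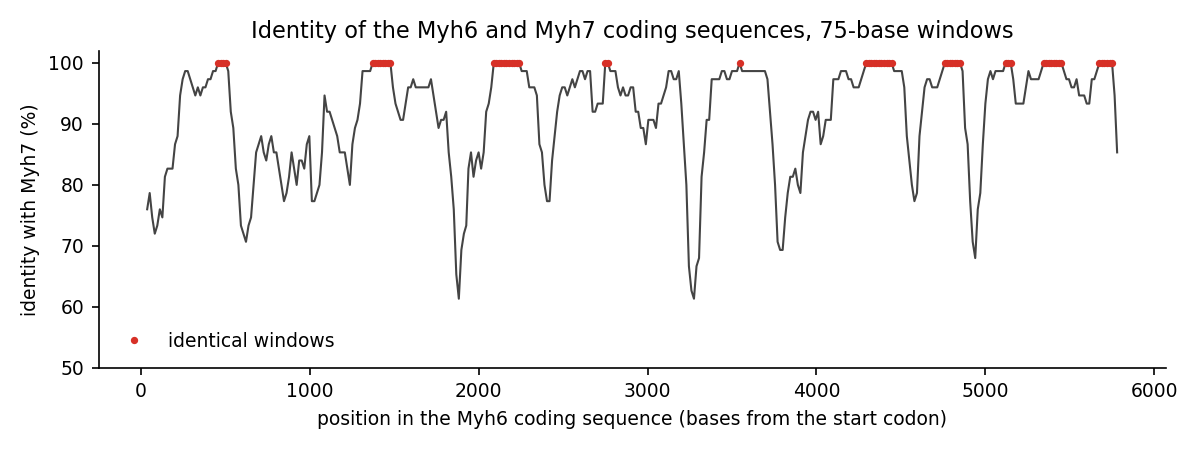
Identity (%) of the Myh6 and Myh7 coding sequences in windows of 75 bases (vertical axis) against position in the Myh6 coding sequence (bases, horizontal axis). The line reaches 100% in 61 of 384 windows and falls to 61.3% at its lowest, so the genes can be told apart in some stretches and not in others.

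Upstream of their start sites both genes carry CATTCC, the MCAT motif bound by TEAD factors, read here on the opposite strand as GGAATG. It starts at −206 in Myh6 and at −201 in Myh7, counted from the RefSeq start site, and on either strand it occurs in 12.6% of 32851 promoter windows of 250 bases, so its presence is a description only. A further RefSeq start of Myh7 has no match in its window. The motif is also in the window of Myl3. A Mylk3 window holds it as well, while that of a further Mylk3 RefSeq start does not. The stretches that hold it are shown with the motif in capitals (RefSeq, GRCm38.p6, minus strand; the Myh6 stretch lies inside the gene's GENCODE span but in no exon, the Myh7 stretch before the gene):
Myh6 promoter, chr14:54966758-54966857: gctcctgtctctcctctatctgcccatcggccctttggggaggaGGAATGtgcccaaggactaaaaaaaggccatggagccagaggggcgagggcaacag
Myh7 promoter, chr14:54994777-54994876: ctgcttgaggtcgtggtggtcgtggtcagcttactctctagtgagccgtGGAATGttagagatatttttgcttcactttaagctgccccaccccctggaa

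The libraries held 14146048 to 15620476 counts, so that 3 counts, taken as the limit of detection, equal 0.192 to 0.212 CPM (CPM, counts scaled to library size, here with the TMM method, which balances libraries over most genes). Txnip stood at 724, 791 and 741 CPM in the wild-type hearts and 438, 391 and 429 CPM in the knock-in hearts. Mitochondrially encoded genes took 28.0% of the counts of wild-type heart 3 and 22.9% to 24.3% of the others. Although the labels say heart, some defining atrial markers were nearly absent: the reads of Myl7, the atrial regulatory light chain, numbered 0, 0 and 5 in wild-type and 0, 2 and 5 in knock-in hearts, and Sln, the atrial calcium pump inhibitor sarcolipin, had at most 4. Other genes of the 10-gene atrial list were detected, and 6 were tested, among them Nppa, the atrial natriuretic peptide, at 187 ± 76.6 and 337 ± 215 CPM and Clec3b at 34.0 ± 4.13 and 25.3 ± 8.05 CPM (SD, n = 3 each). Of the 12-gene skeletal muscle list, the heavy chain Myh2 had 0 counts in every heart, but other genes were counted. Myh1, another heavy chain, had 15 counts in knock-in heart 1 and 0 in the others. Pvalb had 2, 0 and 0 counts in wild-type and 6, 0 and 8 in knock-in hearts. Tnnt3 had 2, 3 and 1 against 10, 3 and 3, and Actn3 3, 1 and 2 against 2, 0 and 0. The light chain Myl1 had 725, 722 and 720 against 849, 537 and 649. Of the 5 tested genes, 3 had positive and 2 negative log2 fold changes. In bulk tissue, fewer cells of a type and less RNA per cell cannot be told apart.

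Per kilobase of the longest protein-coding transcript the light chains had the highest levels. Over the 6 hearts the mean level was 14586 CPM per kilobase for Myl2, 7719 for Myl3, 3199 for Myh6, 134 for Mylk3, 11.7 for Myh7 and 1.98 for Myh7b. On this length no neighbours in the order overlapped: the lowest Myl2 level was 11197 against a highest Myl3 level of 8558, the lowest Myl3 level 6226 against a highest Myh6 level of 3516, and the lowest Mylk3 level 113 against a highest Myh7 level of 22.1. The lowest Myh6 level was 2631 against a highest Mylk3 level of 155, and the lowest Myh7 level was 6.38 against a highest Myh7b level of 2.84. The light chain levels depend on the length used: per kilobase of all annotated exons the means were 6650 for Myl2, 3539 for Myl3 and 2908 for Myh6, and in wild-type heart 3 Myl3 (2854) then lay below Myh6 (3196). Both slow-type heavy chains were thus far below the alpha chain, though above the limit of detection in every heart.

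**Figure D2:**
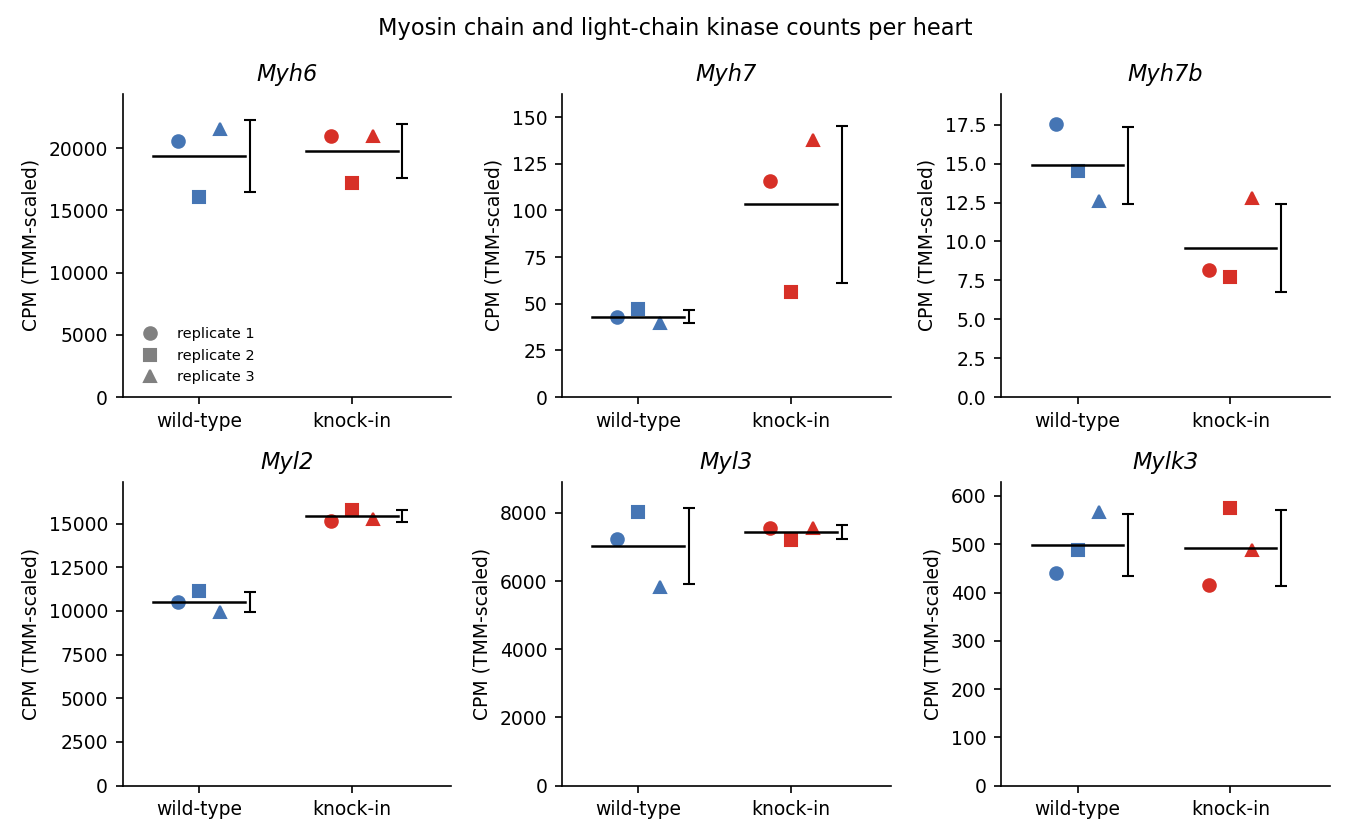
TMM-scaled CPM of each of the 6 genes (linear axes from 0, 1 panel per gene) in every heart, with wild-type and knock-in hearts in separate columns. Points are hearts, horizontal lines the mean of 3 and error bars the SD. The knock-in Myl2 and Myh7 points all lie above the wild-type points, and those of the other 4 genes overlap.

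Myl2, the regulatory light chain (ENSMUSG00000013936, chr5:122100951-122113472, plus strand), rose in the knock-in hearts, and it alone of the 6 was called at an adjusted p under 0.05. Its level was 10501, 11119 and 9954 CPM in the wild-type hearts and 15156, 15799.9 and 15272 CPM in the knock-in hearts. The groups did not overlap, and the gap between them was wider than the spread within either. The means were 10525 ± 583 and 15409 ± 343 CPM (SD, n = 3 per genotype), a 1.46-fold difference (95% interval 1.28 to 1.67). The log2 fold change, knock-in over wild-type, came to 0.55 ± 0.09 (SE; edgeR adjusted p = 0.0399). An exact two-sided permutation test of Myl2 gave p = 0.1, the smallest that 3 against 3 allows. Across all tested genes 0.297% were called (0.110% higher and 0.188% lower), 38 of 12777, beside 1 of the 6 members. Groups that did not overlap were far commoner, at 16.1% of tested genes (8.12% higher and 7.99% lower), beside 2 of the 6, Myl2 and Myh7. The Myl2 call rested on the 6 hearts together and on the scaling: with library size alone its log2 fold change was 0.51 (edgeR adjusted p = 0.0578), and with 1 heart left out it was 0.51 to 0.59 but called in 1 of 6 such fits, the one without knock-in heart 2 (adjusted p = 0.0170, against 0.0534 to 0.209 in the others).

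Myl3, the essential light chain (ENSMUSG00000059741, chr9:110741861-110769798, plus strand), is the partner of Myl2 on the lever arm, and it did not pass the test. It stood at 7217, 8018 and 5834 CPM in the wild-type hearts and at 7558, 7209 and 7563 CPM in the knock-in hearts. Every knock-in heart lay within the wild-type range. Knock-in over wild-type, its log2 fold change came to 0.08 ± 0.11 (SE; edgeR adjusted p = 0.886), with a 95% interval from −0.17 to 0.34. The ratio of Myl2 to Myl3 per transcript length, which needs no scaling between hearts, was 1.53, 1.46 and 1.80 in the wild-type hearts and 2.11, 2.31 and 2.13 in the knock-in hearts, with no overlap (1.60 ± 0.177 against 2.18 ± 0.109; SD, n = 3 each). The ratio of Myl2 to Myh6 was likewise higher in every knock-in heart, at 4.96, 6.30 and 5.005 against 3.51, 4.75 and 3.18. That of Myl3 to Myh6 overlapped, at 2.35, 2.73 and 2.35 against 2.29, 3.25 and 1.77. Neither Myl2 ratio could overlap, because the ranges of the separate genes already kept the genotypes apart whichever hearts were paired. Both therefore add nothing to the Myl2 values. Myl2 was not set against heart muscle genes with log2 fold changes near its own, such as Fabp3 (0.55) and Tpm1 (0.47).

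**Figure D3:**
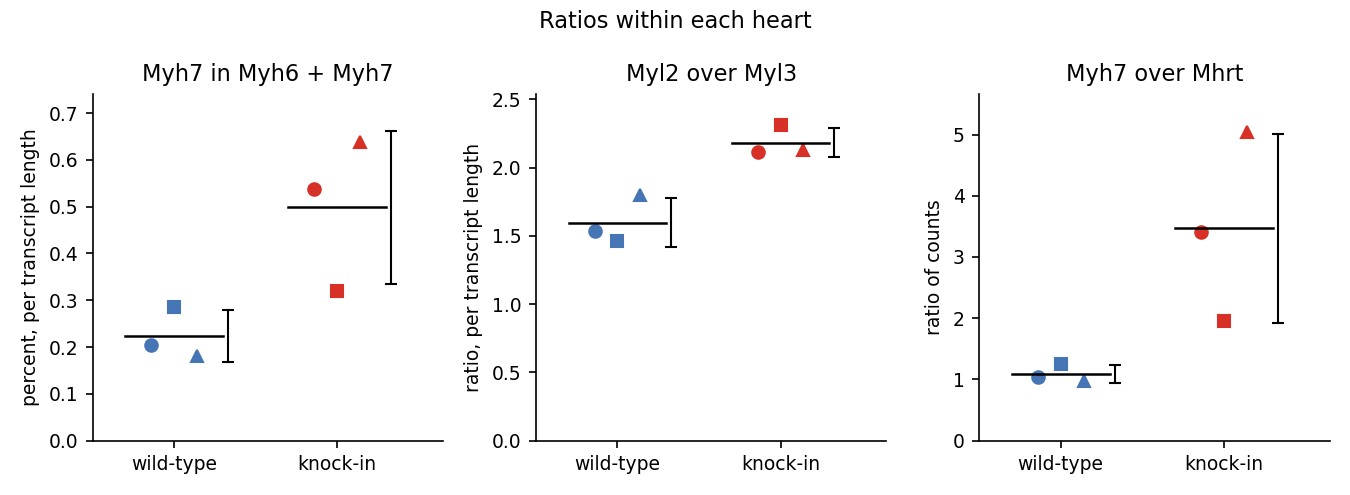
Myh7 as a percent of Myh6 plus Myh7 per transcript length, the ratio of Myl2 to Myl3 per transcript length, and counts of Myh7 per count of Mhrt, an RNA that overlaps Myh7 on the other strand, in each heart (points; lines are means of 3, error bars SD). The genotypes do not overlap in any panel, and the knock-in hearts spread more widely than the wild-type hearts in the panels with Myh7. For Myh7 over Mhrt the lack of overlap was fixed beforehand, because counts of each gene already separated the genotypes, in opposite directions. For Myl2 over Myl3 it was fixed by the separate ranges of Myl2 and Myl3.

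Mylk3, the cardiac myosin light chain kinase (ENSMUSG00000031698, chr8:85324303-85386345, minus strand), stood at 439.7, 489 and 567 CPM in the wild-type hearts and 416, 574 and 488 CPM in the knock-in hearts. The groups overlapped from end to end. The log2 fold change of Mylk3 came to −0.02 ± 0.13 (SE; edgeR adjusted p = 0.990; 95% interval −0.31 to 0.28). The rest of the phosphorylation machinery, a list of 16 kinases, phosphatase subunits and calmodulins of which 15 were tested, held 0 called genes in edgeR, DESeq2 and limma-voom (at an unadjusted edgeR p under 0.05, 2 were higher and 0 lower), and its median log2 fold change was 0.01, against −0.01 over all tested genes. The smallest p was that of Ppp1r14c, an inhibitor of protein phosphatase 1, with 134 ± 18.1 CPM in wild-type and 173 ± 16.5 CPM in knock-in hearts (SD, n = 3 each; log2 fold change 0.37, edgeR adjusted p = 0.307). Mylk4, a kinase of the same family, had a log2 fold change of −0.20 (edgeR adjusted p = 0.928) and was called lower in the fit without knock-in heart 2.

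Myh6, the alpha heavy chain, did not pass the test. It stood at 20546, 16080.3 and 21495 CPM in the wild-type hearts and 21004, 17234 and 20984 CPM in the knock-in hearts. Wild-type heart 2 and knock-in heart 2 were low and the 4 others close together, so the groups overlapped. The means were 19374 ± 2891 and 19741 ± 2171 CPM (SD, n = 3 each), with a log2 fold change of 0.03 ± 0.13 (SE; edgeR adjusted p = 0.979) and a 95% interval from −0.25 to 0.30. Its direction turned with other scalings and with hearts left out, between −0.10 and 0.13.

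Myh7, the beta heavy chain, was higher in each knock-in heart than in any wild-type heart, but it missed the threshold. It had 42.9, 47.0 and 39.7 CPM in the wild-type hearts and 116, 56.3 and 138 CPM in the knock-in hearts. The wild-type hearts lay close together, and the knock-in hearts were spread, with heart 2 near the wild-type range. The means were 43.2 ± 3.63 and 103 ± 42.1 CPM (SD, n = 3 each), 2.39-fold apart in the fit, with a log2 fold change of 1.26 ± 0.30 (SE; edgeR adjusted p = 0.216, unadjusted p = 0.00380) and a 95% interval from 0.55 to 1.96. An exact two-sided permutation test gave p = 0.1, the smallest possible. Of all tested genes, 9.97% had an unadjusted p under 0.05, as did 3 of the 6 members. Knock-in heart 2 decided the call: without it the log2 fold change of Myh7 was 1.56 (edgeR adjusted p = 3.50e-05), and DESeq2 on all 6 hearts gave an adjusted p of 8.15e-05. These fits called more genes in all, 174 without knock-in heart 2 and 134 with DESeq2, against 38 in the main fit.

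Even where it was highest, the beta chain was a trace of the pair. Per transcript length Myh7 made up 0.204%, 0.286% and 0.181% of Myh6 plus Myh7 in the wild-type hearts and 0.538%, 0.319% and 0.639% in the knock-in hearts. These did not overlap, and the means, 0.224% ± 0.0550 and 0.499% ± 0.163 (SD, n = 3 each), differed by 0.275 percentage points. This share is given without a test.

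Myh7 shares its locus with Mhrt, a long noncoding RNA transcribed from the opposite strand, known to restrain the chromatin remodeller Brg1. The genes have 484 exon bases in common, 39.9% of the exon bases of Mhrt, and whether strand was used in counting is not given in the sources used here. Counts of Mhrt were 602, 539 and 592 for the wild-type hearts against 522, 437 and 400 for the knock-in hearts, with no overlap, with a log2 fold change of −0.41 ± 0.12 (SE; edgeR adjusted p = 0.242). The fold changes of the pair thus had opposite signs, and neither passed the test. Myh7 had 1.04, 1.26 and 0.970 counts per Mhrt count in the wild-type hearts and 3.41, 1.95 and 5.05 in the knock-in hearts. As counts of each gene already separated the genotypes, in opposite directions, this ratio could not overlap and adds nothing to them.

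Myh7b, an old slow-type heavy chain gene (ENSMUSG00000074652, chr2:155611212-155634307, plus strand) best known in the heart as the host of miR-499, had a fold change opposite in sign to that of Myh7 and did not pass the test. It had 17.5, 14.5 and 12.6 CPM in the wild-type hearts and 8.20, 7.71 and 12.8 CPM in the knock-in hearts. Knock-in heart 3 lay just above the lowest wild-type heart, so the groups overlapped. The means were 14.9 ± 2.48 and 9.57 ± 2.82 CPM (SD, n = 3 each), with a log2 fold change of −0.64 ± 0.21 (SE; edgeR adjusted p = 0.305; 95% interval −1.10 to −0.18). Its exact two-sided permutation p was 0.2. Without a filter on low counts it was called (edgeR adjusted p = 0.0128). Set against Myh7 in the same heart, the count ratio of Myh7b to Myh7 was 0.409, 0.310 and 0.317 in the wild-type hearts and 0.0708, 0.137 and 0.0932 in the knock-in hearts, with no overlap. Myh7, the denominator, already separated the genotypes by itself, so this ratio says nothing of Myh7b alone.

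**Figure D4:**
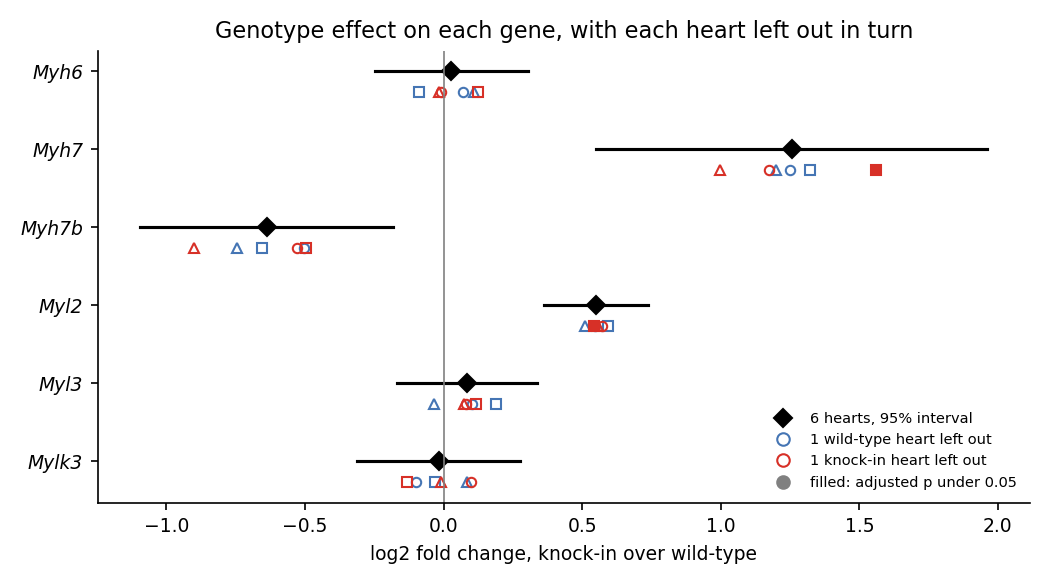
Log2 fold change, knock-in over wild-type, of the 6 genes in edgeR (diamonds) with 95% intervals (bars), and the same estimate with 1 heart left out at a time (small points, filled where the adjusted p was under 0.05). The interval of Myh7, from 0.55 to 1.96, is wide beside that of Myl2, from 0.36 to 0.74, and those of Myh6, Myl3 and Mylk3 span 0.

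Relatives of these genes held 0 called genes in edgeR, DESeq2 and limma-voom. Among 11 other heavy chains, 4 had enough counts, all of them nonmuscle or smooth muscle chains, and the smallest p belonged to Myh11, the smooth muscle heavy chain, at 18.3 ± 2.15 and 19.5 ± 3.73 CPM (SD, n = 3 each; log2 fold change 0.09, edgeR adjusted p = 0.916). Myh2, Myh3 and Myh15 had 0 counts in every heart. Among 10 other light chains 8 were tested, 6 with a positive and 2 with a negative log2 fold change and a median of 0.17, and the smallest p was that of Myl9 (0.23, edgeR adjusted p = 0.707). Both families had 0 genes at an unadjusted p under 0.05. Among all 12777 tested genes 6177 had a positive log2 fold change. Myl4, the light chain of atrial and fetal muscle, was counted 37, 29 and 47 times in wild-type hearts against 50, 42 and 34 times in knock-in hearts.

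Partners of myosin in the thick filament and its folding were tested for 17 of 20 genes, with 0 called by edgeR and limma-voom, and with 1 higher and 1 lower when edgeR's p under 0.05 was left unadjusted; the median log2 fold change was −0.06. DESeq2 called these 2, Myom2 higher and Mybpc2 lower. Myom2, an M-band protein that links thick filaments, stood at 634 ± 122 CPM in wild-type and 1053 ± 120 CPM in knock-in hearts (SD, n = 3 each), with groups that did not overlap (log2 fold change 0.73, edgeR adjusted p = 0.0814). Mybpc2, the fast skeletal form of myosin binding protein C, stood at 20.2 ± 1.74 and 10.5 ± 3.69 CPM (−0.95, edgeR adjusted p = 0.146), while Mybpc3, the cardiac form, stood at 3595 ± 103 and 3209 ± 384 CPM (−0.16, edgeR adjusted p = 0.655).

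All 31 transcription regulators of the cardiac myosins on the list were tested, and 0 were called by edgeR, DESeq2 or limma-voom; 1 was higher and 3 lower at an unadjusted edgeR p under 0.05, 23 had a negative log2 fold change and the median was −0.08. Of all 12777 tested genes 6600 had a negative log2 fold change and 9.97% an unadjusted p under 0.05. The lowest p on the list was that of Mhrt. Hand2, a helix-loop-helix factor of the heart, stood at 29.8 ± 7.22 and 42.3 ± 1.32 CPM (SD, n = 3 each; 0.51, edgeR adjusted p = 0.304). Irx4, a ventricular homeobox factor, stood at 27.1 ± 1.26 and 21.5 ± 1.27 CPM (−0.33, edgeR adjusted p = 0.333), and Nkx2-5, a cardiac homeobox factor, at 37.0 ± 5.55 and 28.5 ± 3.80 CPM (−0.38, edgeR adjusted p = 0.397).

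Of 9 genes of the slow and fetal muscle programme outside the members, 8 were tested and 1 was called. Uchl1, a ubiquitin hydrolase, rose from 7.12 ± 1.88 to 18.5 ± 4.65 CPM (SD, n = 3 each; log2 fold change 1.38, edgeR adjusted p = 0.0447), a call that held in 1 of 6 fits with a heart left out, without knock-in heart 2. Tnnt1, the slow skeletal troponin T, stood at 18.4 ± 1.93 and 34.1 ± 11.6 CPM with no overlap (0.89, edgeR adjusted p = 0.237), and Nppa, whose groups overlapped, had a log2 fold change of 0.85 (edgeR adjusted p = 0.730). The list did not go 1 way: 4 log2 fold changes were positive and 4 negative, those of Nppb (−0.16), Acta1 (−0.20), Xirp2 (−0.14) and Ankrd1 (−0.02), and the median was 0.0007. DESeq2 called Uchl1 and Tnnt1, and limma-voom called 0. Like Myh7, Tnnt1 was called when knock-in heart 2 was left out.

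**Figure D5:**
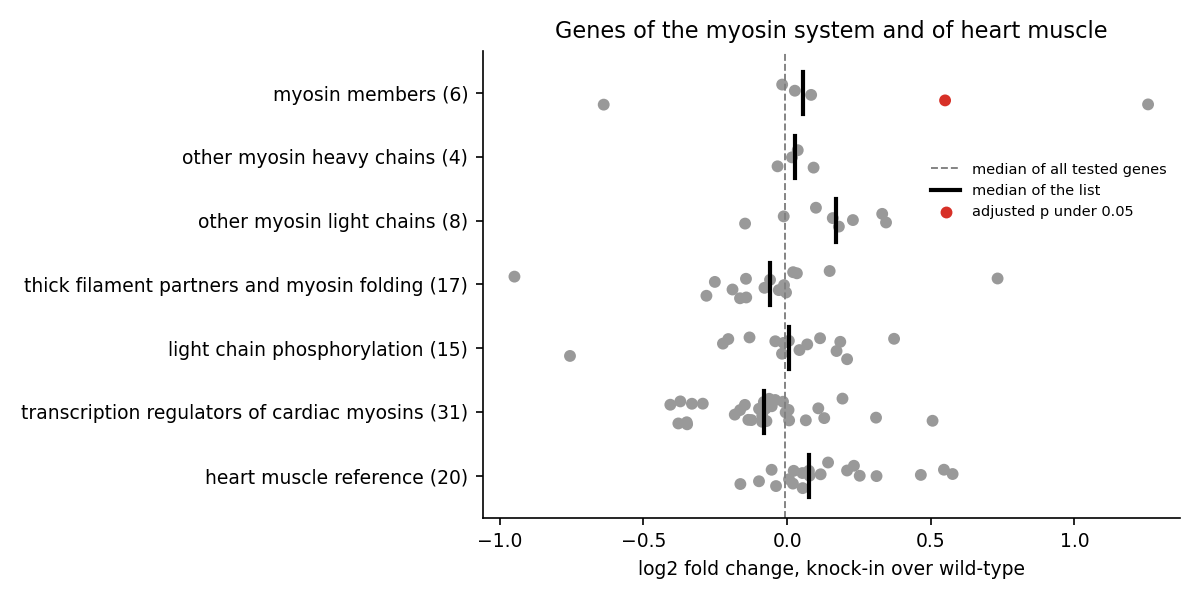
Log2 fold change, knock-in over wild-type, of every tested gene (points) in the myosin genes and in each related list, with the median of each list as a bar, that of all tested genes as a dashed line and called genes in red. Points are spread vertically within a row for legibility. Myl2 at 0.55 is the red point, and the lists of other heavy chains, light chains, thick filament, phosphorylation, regulator and heart muscle genes hold none.

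The 20 genes of a heart muscle reference list summed to 88116 to 93838 CPM in the wild-type and 99599 to 109724 CPM in the knock-in hearts. They held 0 called genes in edgeR and limma-voom and 2, Fabp3 and Tpm1, in DESeq2 (5 higher and 0 lower at an unadjusted edgeR p under 0.05), 16 positive and 4 negative log2 fold changes and a median of 0.08. Of all 12777 tested genes 6177 had a positive log2 fold change and 9.97% an unadjusted p under 0.05. Fabp3, the fatty acid binding protein of heart muscle, had a log2 fold change of 0.55 (edgeR adjusted p = 0.0847), Tpm1, alpha tropomyosin, at 0.47 (adjusted p = 0.146), Mb, myoglobin, at 0.31 (adjusted p = 0.332) and Tnnt2, cardiac troponin T, at 0.25 (adjusted p = 0.322). Scaled to these 20 genes, Myl2 had a log2 fold change of 0.43 (edgeR adjusted p = 0.0699), with the median of all tested genes at −0.13.

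Of 7 erythroid markers 6 were called higher by edgeR (2 to 6 with 1 heart left out, the fewest without wild-type heart 2), with sums of 487 to 665 CPM in the wild-type and 1494 to 1964 CPM in the knock-in hearts. Of 10 macrophage markers 1, Lyz2, was called lower by edgeR (with 1 heart left out, only without knock-in heart 2), while DESeq2 called 3 lower and limma-voom 0. At an unadjusted edgeR p under 0.05, 7 were lower and 0 higher. All 10 had negative log2 fold changes, against 6600 of all 12777 tested genes (sums 367 to 425 against 275 to 302 CPM). Of 8 smooth muscle markers 1, Acta2, was called lower. Atrial markers (6 of 10 tested; 176 to 321 against 213 to 635 CPM, mostly Nppa), conduction system markers (6 of 9; 32.8 to 37.4 against 38.7 to 47.3 CPM; Isl1 at 0 counts throughout), skeletal muscle markers (5 of 12; 71.0 to 74.2 against 45.6 to 75.9 CPM) and ventricular markers other than the members (7 of 7; 2459 to 2850 against 2836 to 3279 CPM) held 0 genes called by edgeR or limma-voom. DESeq2 called Cntn2, a conduction marker, higher and Mybpc2 lower among them. Fibroblast and endothelial markers, 8 tested genes each, held 0 called by edgeR, DESeq2 or limma-voom and 0 at an unadjusted edgeR p under 0.05, though Postn, a matrix protein on the fibroblast list, was called higher without knock-in heart 2. The part of any of these in the Myl2 and Myh7 values was not tested.

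The genes whose level over the 6 hearts was most like that of each member were found among 7355 genes with a mean of at least 10 CPM, by Pearson correlation of log2 CPM. With 6 hearts and shared libraries these are descriptions. Myh7 went most closely with Galnt18 (r = 0.989), Ube2z (0.986) and Tnnt1 (0.980), Myl2 with Uqcr10 (0.994) and Rab11b (0.993), and Myh6 with Efnb2 (0.989), Dhx38 (0.981) and Atl3 (0.976). Myh7b was nearest to Sf3b5 (0.999), Rsph3b (0.982) and Gba2 (0.981), Myl3 to Nit2 (0.990), Slc39a3 (0.986) and Ddost (0.984), and Mylk3 to Prpf4b (0.998), Pdpk1 (0.998) and Pum2 (0.997). No member was among the 3 nearest genes of another member.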

How the data were processed

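Total RNA of 6 mouse hearts was made into NEBNext Ultra II libraries, per the labels' protocols. The authors deposited whole-number read counts per gene, 1 column per heart, not normalised. GRCm38.p6, STAR, featureCounts, Subread 1.5.2 and DESeq2 appear in the submitters' processing notes without roles. The annotation release, strand setting and handling of multiply matching reads: not given in the sources used here. Gene names and positions came from GENCODE M21 (GRCm38), which held 49056 of 49315 identifiers.

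The quasi-likelihood test of edgeR 4.0.16 in R 4.3.3 (TMM scaling, filterByExpr with the genotype as group, robust glmQLFit, glmQLFTest) was fitted to all 12777 tested genes and 6 hearts. A gene was called at an adjusted p under 0.05 (Benjamini-Hochberg over all of them). SE is the log2 fold change over the square root of F. Per-kilobase levels use the longest protein-coding transcript. Between hearts of a genotype, chi-square over degrees of freedom ran from 7.16 to 27.0, beyond sampling noise, and no library was merged with another. Hearts are numbered in accession order. Alternatives included DESeq2 1.42.0 and limma-voom 3.58.1. On simulated counts for this comparison (12631 genes), the fit called 8.96% of genes changed by 0.5 on the log2 scale, 84.6% at 1 and 98.5% at 2, and 8 of 12434 unchanged genes. Those counts were drawn for each gene independently, without differences shared by the genes of a heart, so the shares need not hold for the real hearts. Alignment used Biopython 1.88. The detection floor of 3 counts covers counting error only; the 95% intervals of fold changes come from the edgeR fit and include the spread between hearts.

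The members and lists were chosen with earlier results of these data known. Named genes are the members, Txnip, the called genes of each list or the 1 with the smallest p, the 3 most correlated genes per member (1 of which is not reported here), genes overlapping a member and, by value, any gene of the heart muscle reference, other light chain and phosphorylation lists; Mybpc2, Mybpc3, Hand2, Nkx2-5, Tnnt1, Nppa, Nppb, Acta1, Xirp2, Ankrd1, Clec3b, Postn and the markers at or near 0 were named after their values were seen.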

Additional observations from a re-analysis of the deposited data

How the results depend on the processing

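No paired analysis was possible because the labels give the hearts no shared replicate numbers. Between alternatives the number of called genes moved from 38 to 21 with scaling to the heart muscle reference genes (3 higher and 18 lower, against 14 and 24), 317 with no filter, 134 with DESeq2, 18 with limma-voom, 75 at an adjusted p under 0.1, and 5 (without wild-type heart 2) to 174 (without knock-in heart 2) with 1 heart left out. Of the 6 members 1 was called, against 0 with library size alone and with the heart muscle scaling, 2 with no filter (Myh7b and Myl2) and with DESeq2 (Myh7 and Myl2), and 0 to 2 with 1 heart left out. Over 17 alternatives Myl2 was called in 10, with adjusted p from 1.33e-05 to 0.209, and kept its direction in all 17, as did Myh7 (0.996 to 1.56, called in 2) and Myh7b (−0.90 to −0.49, called in 1). The direction turned for Myh6 with library size alone (−0.011), with the heart muscle scaling (−0.10) and with hearts left out (−0.090 to 0.13), for Myl3 with that scaling (−0.032) and with hearts left out (−0.034 to 0.19), for Mylk3 with hearts left out (−0.13 to 0.10) and for Myh11 with that scaling (−0.033). The causes were not tested. The share of Myh7 differed by 0.280 percentage points without length scaling and by 0.205 to 0.365 with 1 heart left out. With 3 hearts per genotype the 95% intervals of Myh6, Myl3 and Mylk3 still allow log2 fold changes of −0.31 to 0.34.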

Other observations

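Pth1r, the parathyroid hormone receptor gene, overlaps Myl3 on the opposite strand by 95 exon bases. Its counts were 48, 47 and 39 for wild-type hearts against 101, 44 and 90 for knock-in hearts, high in knock-in hearts 1 and 3 and not in heart 2 (log2 fold change 0.76, edgeR adjusted p = 0.419). Pth1r was called in 1 of 6 fits with a heart left out (edgeR adjusted p = 0.0243). Myh7 and Dkk3 also had their highest values in knock-in hearts 1 and 3. Dkk3, a secreted protein on the atrial list, was counted 22, 19 and 16 times in wild-type hearts against 43, 15 and 54 times in knock-in hearts. Without knock-in heart 2 it was called higher (edgeR adjusted p = 0.0380).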
